A study of Homo sapiens with 4 samples.

Results

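The response of PC3 cells to a circ0003553 overexpression plasmid was described by comparing 2 RNA libraries, 1 from cells given that plasmid and 1 from cells given a negative control plasmid. PC3 is an established human prostate cancer line that was derived from a bone metastasis and grows without androgen. Genes entered the comparison when their counts summed to at least 50 over both PC3 libraries, which held for 17363 of the 35211 genes in the deposited table. The whole series has 4 libraries, the others being DU145 cells, a second prostate cancer line, with the same pair of plasmids. Every group thus consists of transfected cells that carry a plasmid, and no untransfected cells were part of it. Sample titles name the gene RCAN3 beside every plasmid, the control included. The labels do not give the time after transfection, the share of cells that took up a plasmid, or the vector backbone. With 1 library per group there is no replicate, so each ratio of the circ0003553 library to the control library is given with a 95% exact conditional binomial (Clopper-Pearson) interval and without a test. These intervals cover counting error only, and they say nothing of how far a second culture would differ.

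Circular RNAs are made when a downstream splice donor joins an upstream acceptor, and plasmids that express them usually carry the circularised exons between flanking sequences that pair with each other. RCAN3 belongs to the regulators of calcineurin, a calcium-dependent phosphatase whose substrates include the NFAT transcription factors. Type I and type III interferon responses start when sensors such as RIG-I and MDA5 detect double-stranded or 5′-triphosphate RNA, or when cGAS detects DNA in the cytosol. The sensors lead to phosphorylation of IRF3 and IRF7 and to release of NF-kB, and the interferons that follow signal through JAK kinases to a complex of STAT proteins with IRF9. That complex and the IRFs bind a promoter element called the ISRE, and the genes with this element encode sensors, antiviral effectors and parts of the pathway itself.

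The PC3 libraries held 33438509 (control) and 39488890 (circ0003553) counts assigned to genes, and the DU145 libraries 38047428 (control) and 36461229 (circ0003553). Counts were scaled by TMM, a trimmed mean of ratios between libraries, and levels are given as scaled CPM, the share of a library's counts on a fixed scale. Of the counts from 1 to 20, 75.3% and 74.1% were even in the PC3 libraries, so that a read pair appears to have often counted as 2 and the intervals are too narrow. Intervals from halved counts are given for RCAN3, RSAD2 and SCN3A, and for genes whose printed interval would otherwise be read as clear of 1 or of 2-fold. The line label was checked against markers. The keratins KRT8 (15637 and 19117 counts in the control and circ0003553 library) and KRT18 (9902 and 11308), the filament gene VIM (11344 and 15581) and the adhesion receptor CD44 (5139 and 6463) were abundant. KLK3 was not analysed here. VIM was abundant in DU145 too (24033 and 28965 counts), so it does not tell the lines apart. STAT3 had 2 and 6 counts in PC3, against 7479 and 6160 in DU145. Of 10 leukocyte markers only CD68, a lysosomal gene that other cells also express, reached 50 counts, and the pan-leukocyte gene PTPRC had 2 and 0. Of 9 endothelial markers 4 reached 50 counts, among them KDR (1564 and 1624) and PECAM1 (585 and 595). Of 11 fibroblast and smooth muscle markers 4 did, among them COL1A1 (1153 and 1519) and PDGFRA (238 and 238). Of 8 markers of HEK293, HeLa and hepatic cells only WT1 did (86 and 92). Whether PC3 cells themselves express these genes was not tested.

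In PC3, 176 of 17363 genes (1.01%) were at least 2-fold higher with the circ0003553 plasmid and 69 (0.397%) at least 2-fold lower. For 54 of the higher genes and 7 of the lower ones the whole interval lay beyond 2-fold. The median log2 ratio of all counted genes was 0.01, and 11031 genes had an interval that spanned 1. An interval above 1 was found for 3381 genes (19.5%) and one below 1 for 2951 (17%). From halved counts these were 1995 and 1854 genes. Low counts held most of the 2-fold genes. Among 3758 genes with under 200 summed counts, 127 were higher and 64 lower. Among 13605 genes with 200 or more, 49 (0.36%) were higher and 5 (0.0368%) lower. At 1000 or more summed counts 27 genes were 2-fold higher and none of 8514 was 2-fold lower. The 2-fold threshold divides genes of nearly equal ratio. Just inside it were RNF144A-AS1 (44 and 105 counts, ratio 2.001) and BMP6 (52 and 31, 0.4998), and just outside it WDR25 (84 and 200, 1.996) and SH3GL1P3 (95 and 57, 0.503).

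**Figure D1:**
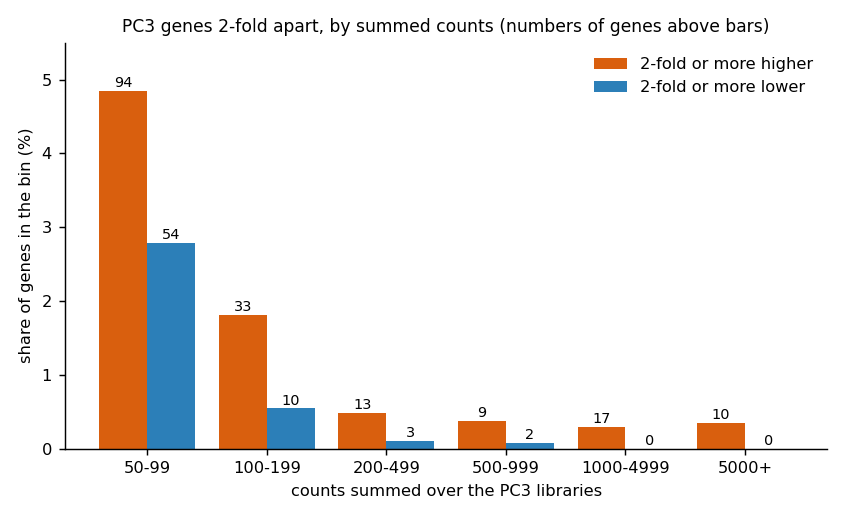
Share of PC3 genes at least 2-fold higher or lower with the circ0003553 plasmid (y axis, %), by counts summed over both PC3 libraries (x axis); the numbers above the bars are genes. Lower genes thin out with depth, from 54 genes at 50 to 99 counts to 0 at 1000 or more counts, while 10 genes at 5000 or more counts were still 2-fold higher.

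**Figure D2:**
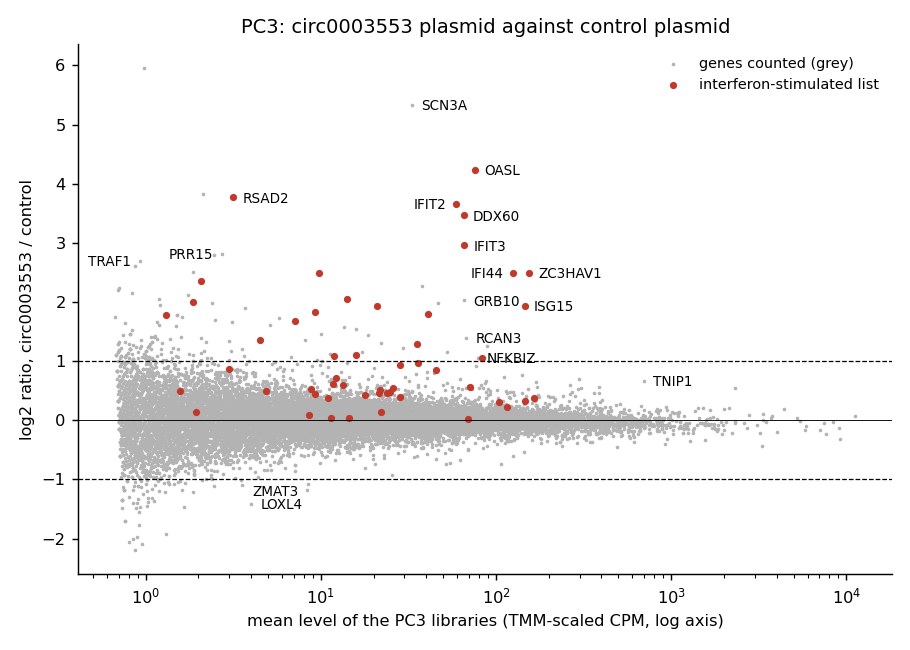
Log2 ratio of the circ0003553 to the control library in PC3 (y axis) against the mean scaled CPM of both libraries (x axis, log scale) for the 17363 counted genes; dashed lines mark 2-fold. Red points are the 52 counted genes of the interferon-stimulated list, none of which lies under the line of equal level. The single grey point at the top left is RPS17P11, with 1 and 74 counts.

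The gene named in the sample titles was higher in the library labelled circ0003553. RCAN3 (chromosome 1 from 24502351 to 24541040, plus strand, hg38) had 1212 control and 3798 circ0003553 counts, or 37.4 and 98.2 CPM. The ratio was 2.63 (2.46 to 2.81, and 2.39 to 2.88 from halved counts), which ranked 28th of the 49 well-covered higher genes. Gene-level counts cannot separate circ0003553, transcribed plasmid and linear RCAN3 mRNA. RP4-594I10.3, which shares exon bases with RCAN3, had 52 and 63 counts, a ratio of 1.02 (0.692 to 1.5). Calcineurin itself differed little in PC3. The catalytic subunit genes PPP3CA, PPP3CB and PPP3CC had ratios of 1.15, 0.981 and 1.01, and the regulatory subunit gene PPP3R1 had 1.12. RCAN1, the paralog that NFAT induces, had 1184 and 1429 counts, a ratio of 1.01 (0.936 to 1.09). NFAT5, the osmotic-stress member of the NFAT family, stood highest after RCAN3 among the counted genes, at 1663 and 2588 counts and a ratio of 1.3 (1.23 to 1.39). Of 17 counted calcineurin and NFAT genes, RCAN3 was the only one past 2-fold, and the list median log2 ratio was 0.05. Of all genes 1.01% were 2-fold higher and 0.397% lower, so a list this small would hold few such genes in any case.

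Interferon-stimulated genes made up 10 of the 15 highest ratios at 200 or more counts. Of 52 counted genes of that list 22 (42.3%) were at least 2-fold higher, against 1.01% of all genes, and none was lower. The interval lay above 1 for 45 of the 52, against 19.5% of all genes, and the median log2 ratio was 0.79, against 0.01. This list was put together with earlier results of these data known and was not matched for counts, so its counts are a description. The counts in the IFIT genes, whose proteins bind foreign RNA ends, were far apart between the libraries. IFIT2 had 280 counts in the control library and 4213 with circ0003553, a ratio of 12.6 (11.2 to 14.3). IFIT3 had 487 and 4516, a ratio of 7.77 (7.08 to 8.55), and IFIT1 had 282 and 1289, a ratio of 3.83 (3.37 to 4.38). The fourth family member, IFIT5, did not share this pattern, with 367 and 448 counts and a ratio of 1.02 (0.89 to 1.18). These genes lie side by side on chromosome 10, IFIT2 from 89283694 to 89309276, IFIT3 from 89327894 to 89340971 and IFIT1 from 89392546 to 89406486 (all plus strand, hg38). IFIT2 shares exon bases with LIPA, a lysosomal lipase gene on the other strand, which had 231 and 427 counts and a ratio of 1.55 (1.32 to 1.83). Reads in shared exons cannot be told apart, since the strand setting of the counting is not given.

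The oligoadenylate synthetases make the 2-5A messenger of the antiviral response. OASL, a family member without that enzyme activity that enhances RIG-I signalling, had 249 and 5594 counts, the second-highest ratio among genes with 200 or more summed counts at 18.8 (16.6 to 21.5). OAS1 had 132 and 557 (ratio 3.54, 2.92 to 4.31), OAS2 had 110 and 419 (3.19, 2.58 to 3.98) and OAS3 had 1748 and 4324 (2.07, 1.96 to 2.19). Per length, OAS3 was the highest of the family in the control library at 6.34 RPKM and had the smallest ratio, while OASL was the highest with circ0003553 at 40.3 RPKM.

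Other antiviral effectors had ratios between 3.44 and 13.7. RSAD2, which encodes viperin, an enzyme that makes a chain-terminating nucleotide, had 14 and 228 counts, a ratio of 13.7 (7.97 to 25.4, and 6.41 to 34.7 from halved counts). CMPK2, a nucleotide kinase gene next to it and sharing exon bases with it, had 19 and 78, a ratio of 3.44 (2.06 to 6.02, and 1.6 to 7.34 from halved counts). DDX60, a helicase gene tied to RNA sensing, had 354 and 4658, a ratio of 11.0 (9.9 to 12.3). All of these were low in the control library, at 10.9 CPM or less. ZC3HAV1, which encodes the zinc-finger antiviral protein that binds CpG-rich RNA, started from a higher level and had 1514 and 10193 counts, a ratio of 5.64 (5.35 to 5.96). The GTPase genes MX1 (178 and 884) and MX2 (24 and 115) had ratios of 4.16 and 4.02, and BST2 (22 and 134), which encodes the virion tether tetherin, had 5.11. ISG20, an exonuclease gene, had 589 and 2450 counts, a ratio of 3.49 (3.19 to 3.82). IFI44, a gene of unsettled molecular function, had 1216 and 8154, a ratio of 5.62 (5.29 to 5.98).

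ISG15 is a ubiquitin-like protein that is joined to other proteins by an enzyme cascade. Its gene had 1958 and 8961 counts, a ratio of 3.84 (3.65 to 4.03), and the highest level per length of the group, at 62.2 RPKM, which divides counts by gene length and library total, in the control and 241 RPKM with circ0003553. The genes of the cascade differed among themselves. UBA7, the activating enzyme, had 60 and 79 counts and a ratio of 1.1 (0.779 to 1.57). UBE2L6, the conjugating enzyme, had 301 and 548, a ratio of 1.53 (1.32 to 1.76). HERC5, the main ligase, had 326 and 834, a ratio of 2.14 (1.88 to 2.45), and its neighbour HERC6 had 96 and 643, a ratio of 5.62 (4.53 to 7.03). USP18, which removes ISG15 and dampens receptor signalling, had 232 and 400, a ratio of 1.45 (1.23 to 1.71). From activating enzyme to main ligase the ratios thus ran from 1.1 to 2.14, with the neighbour HERC6 above them at 5.62.

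**Figure D3:**
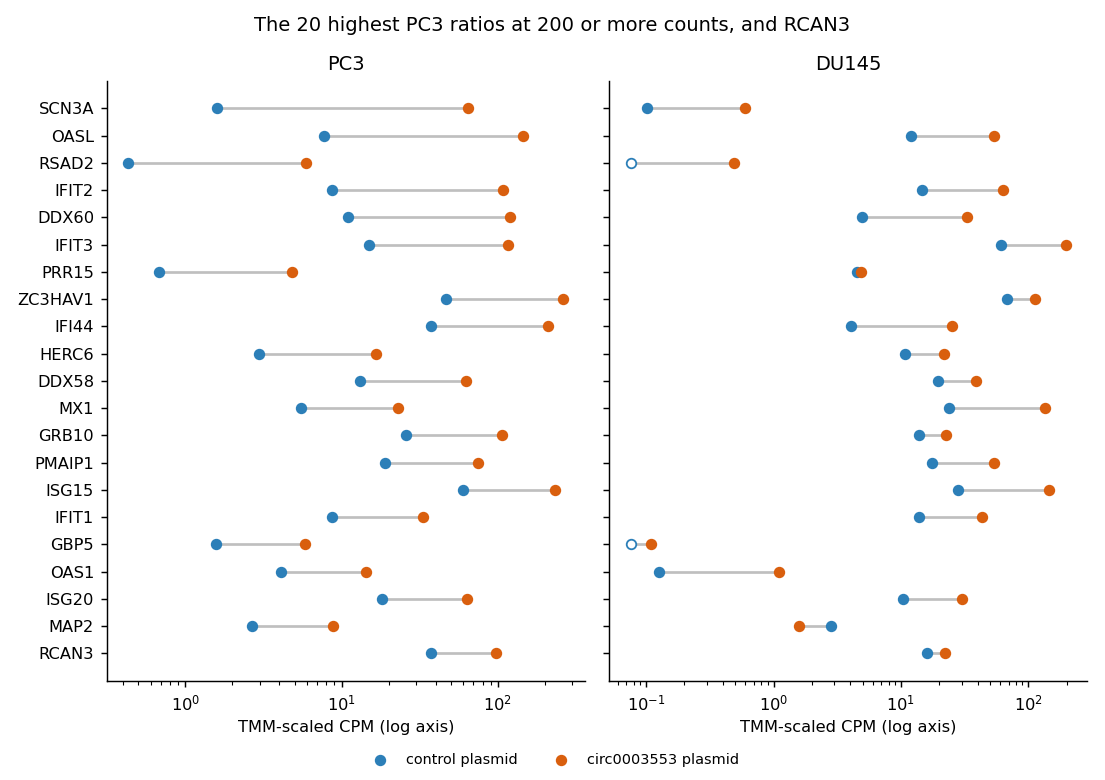
Scaled CPM (x axis, log scale) in the control (blue) and circ0003553 library (orange) for the 20 highest PC3 ratios at 200 or more summed counts and for RCAN3, in PC3 (left) and DU145 (right); each point is 1 library. Open points are libraries with 0 counts, drawn at the limit of 3 counts. In DU145, PRR15 shows no separation (ratio 1.08) and MAP2 is reversed (0.556).

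Part of the list stayed under 2-fold. PARP9 (788 and 1836 counts, ratio 1.95), DDX60L (628 and 1440, 1.92), HELZ2 (1053 and 2266, 1.8) and IFITM1 (69 and 150, 1.82) were close to it. Other well-covered members were near equal level, such as GBP3 (2211 and 2680, ratio 1.02, 0.96 to 1.08), PARP12 (460 and 566, 1.03) and IFITM2 (270 and 344, 1.07). EIF2AK2, which encodes the RNA-activated kinase PKR, had 3007 and 4435, a ratio of 1.24 (1.18 to 1.3). The members that did not reach 50 counts were XAF1, at 0 in both PC3 libraries, RTP4 at 2 and 0, and TRIM22 at 10 and 18. A count of 0 in a PC3 library allows a level of up to 3 counts, which is 0.0925 CPM for the control and 0.0776 CPM for circ0003553.

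The promoters of the interferon-stimulated genes were read from a RefSeq table (build GRCh38.p14), which holds 250 bases before to 50 after each start. Of the 49 well-covered higher genes, 41 had an entry there. Each was searched on both strands for GAAANNGAAA, the core of the ISRE. The core was in 449 of 11082 counted genes with an entry (4.05%) and in 3.57% of all 35116 promoters of the table. It was in 13 of the 16 well-covered higher genes of the interferon-stimulated list that had an entry (81.2%), and in 3 of 25 such genes outside the list (12%), namely IFIH1, GBP4 and AIM2. Of 30 lower genes with an entry 2 had it (6.67%). List members that stayed under 2-fold had the core in 17 of 25 (68%), so that it was frequent in the list whether or not a gene was 2-fold higher. The list leaves out IFIH1, IRF9 and the RIG-I gene DDX58, so genes outside it are not all unrelated to interferon. As a motif of another kind, the AP-1 site TGANTCA was in 5 of the 41 (12.2%), against 7.38% of counted genes. A match is a run of letters, and binding was not measured. Windows of 5 antiviral effector genes, chosen after their values were seen, are given to show the letters behind these counts. Each holds the match nearest the RefSeq start with 30 flanking bases on either side, on the strand of the gene, and every match inside it is in capitals. The nearest match lay 53 bases before the start for DDX60, 103 for IFIT1, 107 for ISG15, 122 for IFIT3 and 145 for RSAD2. The promoters of DDX60, IFIT3, ISG15 and IFIT1 held 2 matches each. Both are in the window for ISG15, where they overlap, and for IFIT1, and the second match of DDX60 and IFIT3 lies farther upstream. Of higher genes not printed, IFI44 (ratio 5.62) had its match before the start and MX1 (4.16) had it past the start. A match on the other strand is seen as its reverse complement. The regions are chr2:6877602-6877671 (RSAD2, plus strand), chr4:168318766-168318835 (DDX60, minus strand), chr10:89327845-89327914 (IFIT3, plus strand), chr1:1013360-1013429 (ISG15, plus strand) and chr10:89392490-89392559 (IFIT1, plus strand).
RSAD2: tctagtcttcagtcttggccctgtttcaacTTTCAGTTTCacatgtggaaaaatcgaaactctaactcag
DDX60: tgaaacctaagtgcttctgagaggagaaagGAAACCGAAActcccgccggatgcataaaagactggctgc
IFIT3: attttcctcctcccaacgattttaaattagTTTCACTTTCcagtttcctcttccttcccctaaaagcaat
ISG15: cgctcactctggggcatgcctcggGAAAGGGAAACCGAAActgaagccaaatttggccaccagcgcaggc
IFIT1: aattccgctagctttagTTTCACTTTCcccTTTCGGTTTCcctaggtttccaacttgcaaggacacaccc

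Upstream of these genes, ligands were scarce and receptors nearly level. The type III interferon genes IFNL1, IFNL2 and IFNL3 had 0 counts in both PC3 libraries, and the epithelial type I gene IFNE had 8 and 14. The receptor genes IFNAR1 (990 and 1230 counts), IFNAR2 (427 and 522) and IFNLR1 (573 and 719) had ratios of 1.04, 1.02 and 1.05. The kinases TYK2 and JAK1 had 1.03 and 1.1. The transcription factors of the pathway differed among themselves. IRF9 had 571 and 1584 counts, a ratio of 2.33 (2.11 to 2.56), and was the only gene of this list at least 2-fold higher. STAT2 had 913 and 1308 (1.2, 1.1 to 1.31) and IRF7 had 134 and 233 (1.46, 1.17 to 1.82). IRF3, which is activated by phosphorylation, had 3163 and 3755 counts, a ratio of 0.995 (0.949 to 1.04). IRF5, a factor better known from leukocytes, was the only one 2-fold lower, with 54 and 28 counts and a ratio of 0.435 (0.265 to 0.699). Of the 20 counted genes of this list 1 was thus 2-fold higher and 1 lower, against 1.01% and 0.397% of all genes. The interval lay above 1 for 11 of the 20 and below 1 for 1, against 19.5% and 17% of all genes. The median log2 ratio of the list was 0.15. STAT5A and STAT5B had at most 4 counts in PC3.

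RNA sensors and their signalling partners also parted. DDX58, which encodes RIG-I, had 424 and 2430 counts, a ratio of 4.81 (4.33 to 5.34). IFIH1, which encodes MDA5, had 221 and 787, a ratio of 2.99 (2.57 to 3.48). The DNA sensor genes AIM2 (61 and 164 counts) and IFI16 (1547 and 2993) had ratios of 2.25 (1.67 to 3.08) and 1.62 (1.53 to 1.73). TMEM173, which encodes the adaptor STING, had 219 and 500, a ratio of 1.91 (1.63 to 2.25), while MB21D1, which encodes cGAS, had 250 and 309, a ratio of 1.04 (0.874 to 1.23). The adaptor MAVS (1846 and 2131, 0.968) and the kinase TBK1 (1228 and 1513, 1.03) had intervals spanning 1. DHX58, the third RIG-I-like receptor, had 0 counts in both PC3 libraries, and the endosomal receptor TLR3 had 16 in each. In all, 3 of 17 counted sensing genes were 2-fold higher and none lower, against 1.01% higher and 0.397% lower of all genes, with a median log2 ratio of 0.21.

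Of 18 counted cytokine genes 1 was at least 2-fold higher and none lower, against 1.01% and 0.397% of all genes. The chemokine gene CCL5 had 0 and 24 counts, so at least 6.71-fold higher if the control library is set to 3 counts. CXCL11, a ligand of CXCR3, had 2 and 38, a ratio of 15.9 with an interval of 4.12 to 136. Both were under the 50-count minimum. CXCL16 was the counted cytokine gene at least 2-fold higher, with 36 and 93 counts and a ratio of 2.17 (1.46 to 3.28). IL6 had 29 and 64 (1.85, 1.18 to 2.98, and 0.94 to 3.55 from halved counts), and CXCL8 had 893 and 1403 (1.32, 1.21 to 1.43). IL1B, with the most counts of these genes, had 10868 and 12564 counts and a ratio of 0.969 (0.945 to 0.995, and 0.934 to 1.004 from halved counts).

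NF-kB genes were split between a few high ratios and many near 1. NFKBIZ, which encodes an atypical nuclear IkB, had 1654 and 4095 counts, a ratio of 2.08 (1.96 to 2.2). TNIP1, which encodes a partner of the inhibitor A20, had 17500 and 33265 and was among the 10 largest gains in CPM of all genes, at a ratio of 1.59 (1.56 to 1.62). TRAF1 (8 and 62 counts) and PTGS2 (10 and 53), which encodes cyclooxygenase 2, had ratios of 6.5 (3.1 to 15.7) and 4.44 (2.24 to 9.8, and 1.72 to 15.04 from halved counts) from few counts. The classical targets NFKBIA (3872 and 5490, 1.19), TNFAIP3 (1038 and 1381, 1.12) and ICAM1 (2683 and 3540, 1.11) were within 1.2-fold. BCL2A1, an anti-apoptotic target, was lower, with 790 and 602 counts and a ratio of 0.639 (0.574 to 0.711). The list of 20 had 3 genes 2-fold higher (1.01% of all genes were), none lower and a median log2 ratio of 0.19. Genes of MHC class I presentation had a median of 0.29 and none past 2-fold, against 1.01% higher and 0.397% lower of all genes. B2M, the light chain, had 3388 and 5634 counts (1.39, 1.34 to 1.46), HLA-B had 5965 and 9298 (1.31) and the peptide transporter TAP1 had 352 and 571 (1.36), while TAP2 had 3350 and 3786 (0.948).

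Outside the interferon-stimulated list, 154 counted genes were at least 2-fold higher, 30 of them with 200 or more counts. DDX58, IFIH1 and IRF9, which belong to the interferon pathway, are among these 30. The highest was SCN3A (chromosome 2 from 165087522 to 165204067, minus strand, hg38), which encodes a neuronal voltage-gated sodium channel subunit. It had 52 counts with the control plasmid and 2510 with circ0003553, a ratio of 40.5 (30.8 to 54.3, and 27.5 to 62.1 from halved counts). AC013463.2, on the other strand and sharing exon bases with it, had 9 and 153 counts, a ratio of 14.3 (7.31 to 31.8), and its reads cannot be told apart from those of SCN3A. SCN2A, the neighbouring channel gene at a distance of 35305 bases, had 38 and 98 counts and a ratio of 2.16 (1.47 to 3.23). SCN9A in the same gene cluster had 50 and 92 (1.54, 1.08 to 2.22, and 0.927 to 2.62 from halved counts) and SCN1A had 0 and 4. SCN8A on chromosome 12, the channel gene with the most counts in the control library, had 1828 and 2295 counts, a ratio of 1.05 (0.989 to 1.12).

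Several other genes outside that list had clear count differences. PRR15, a proline-rich protein gene, had 22 and 185 counts, a ratio of 7.05 (4.52 to 11.5). GRB10, an adaptor that restrains insulin and growth factor receptors, had 841 and 4098 (4.09, 3.79 to 4.41). PMAIP1, which encodes the BH3-only protein NOXA, had 611 and 2883 (3.96, 3.62 to 4.32). The other BH3-only genes BMF (76 and 192) and BBC3 (44 and 92) had ratios of 2.12 and 1.75, and the NOXA target MCL1 had 2495 and 4001 (1.34, 1.28 to 1.41). The cell cycle inhibitor and ubiquitin ligase genes CDKN1A (383 and 428, 0.937) and MDM2 (1646 and 1847, 0.941) had intervals spanning 1. MAP2, a microtubule-binding protein gene of neurons, had 87 and 343, a ratio of 3.31 (2.61 to 4.23). ABCC9, a sulfonylurea receptor gene, had 261 and 909 (2.92, 2.54 to 3.36), and SPOCK1, a secreted proteoglycan gene, had 1052 and 2793 (2.23, 2.07 to 2.39).

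Receptor genes of the interleukin-7 family appeared among the higher ones. IL7R had 1685 and 4823 counts, a ratio of 2.4 (2.27 to 2.54). CRLF2, which encodes the partner of the IL7R chain in the receptor for thymic stromal lymphopoietin, had 20 and 166, a ratio of 6.96 (4.36 to 11.7). The CRLF2 value rests on few counts in the control library, and both were picked after their values were seen. The guanylate-binding protein genes GBP4 (70 and 192 counts) and GBP5 (51 and 226) had ratios of 2.3 and 3.72, while GBP1 and GBP2 had 1.41 and 1.37. The apolipoprotein L genes APOL3 (55 and 167) and APOL6 (409 and 1214) had ratios of 2.55 and 2.49, and APOL2 (880 and 1219) had 1.16. Members of a family thus differed in size of ratio within both families. The stress-induced transcription factor gene ATF3 had 174 and 570 counts (2.75, 2.31 to 3.27) and KLF4 had 204 and 493 (2.03, 1.72 to 2.4). The serum-response genes JUN (5716 and 6656, 0.976) and MYC (3144 and 3714, 0.99) were near equal level.

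In absolute terms the largest gain in scaled CPM was that of MAP4K4, a kinase gene of stress and migration signalling, with 61421 and 106446 counts and a ratio of 1.45 (1.44 to 1.47). Other large gains belonged to abundant genes at small ratios, such as DYNC1H1 (1.15), ACTN1 (1.08), ENO1 (1.16) and GAPDH (1.13). ZC3HAV1 was the only interferon-stimulated gene among the 10 largest gains. The mitochondrially encoded ribosomal RNA gene MT-RNR2 was also among those 10, with 355956 and 446538 counts (1.05). Several of the largest losses were mitochondrially encoded mRNAs. MT-ND5 had 328415 and 316017 counts (0.807), MT-CO3 had 266762 and 271430 (0.853) and MT-ND6 had 122480 and 107582 (0.736). Of 13 mitochondrially encoded mRNAs 11 had an interval below 1, against 17% of all genes, and the list median log2 ratio was -0.17. The others, MT-ND1 (1.05) and MT-CO1 (1.02), had an interval above 1, so none of the 13 intervals spanned 1. Intervals narrow with counts, and at 5000 or more summed counts 969 of 2806 genes had one that spanned 1. The share of 17% is therefore not from genes of like counts. The share of counts in mitochondrially encoded genes was 6.88% with the control plasmid and 6.34% with circ0003553, and its part in these ratios was not tested.

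Genes with lower counts were fewer and nearer to 1. LOXL4, a collagen cross-linking oxidase gene, had 189 and 85 counts, a ratio of 0.377 (0.288 to 0.49), and was the only 1 of the 13605 well-covered genes whose interval lay wholly below a ratio of 0.5. From halved counts its interval was 0.258 to 0.549, which reaches above 0.5. It shares exon bases with RP11-34A14.3. ZMAT3, which encodes an RNA-binding zinc-finger protein, had 377 and 198, a ratio of 0.44 (0.369 to 0.524). FAM172A had 370 and 210 (0.476, 0.4 to 0.565), FAM27E2 had 156 and 87 (0.468, 0.355 to 0.612) and TGFBI, a matrix protein gene named for its induction by TGF-beta, had 151 and 90 (0.5, 0.381 to 0.653). These 5 were all the well-covered genes at least 2-fold lower. Just above that size were NOX5, a calcium-activated NADPH oxidase gene (188 and 116, 0.517), PHACTR3, a regulator of protein phosphatase 1 and actin (1079 and 679, 0.528), HPGD, which encodes the enzyme that degrades prostaglandins (216 and 144, 0.559), and SMAD6, an inhibitor of BMP signalling (257 and 176, 0.574). Among low counts, CXADR, the coxsackievirus and adenovirus receptor gene, had 40 and 18 (0.377, 0.204 to 0.673), and HCAR2, a receptor gene for hydroxybutyrate, had 44 and 13 (0.248, 0.122 to 0.468, and 0.0962 to 0.646 from halved counts).

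Most other gene lists had medians within 0.2 of 0 on the log2 scale. The list medians were -0.08 for 27 genes of G1/S and DNA replication and -0.04 for 29 genes of G2/M and mitosis. No gene of either was past 2-fold, against 1.01% higher and 0.397% lower of all genes. The mitotic kinase CDK1 had 7892 and 8279 counts (0.88, 0.853 to 0.907). Cytosolic ribosomal proteins had intervals above 1 for 20 and below 1 for 21 of 54 genes, against 19.5% and 17% of all genes. Their median log2 ratio was -0.002. Intervals narrow with counts, and at 5000 or more summed counts 969 of 2806 genes had one that spanned 1. The lists were not matched to other genes for counts, so these shares were not read as a difference from other genes. Immediate early genes had a median of 0.24, with 2 of 21 counted genes (ATF3 and KLF4) 2-fold higher, against 1.01% of all genes. Hypoxia targets had a median of 0.16, and 1 of 23 counted genes was 2-fold higher, against 1.01% of all genes. It was ADM, the vasodilator adrenomedullin (50 and 124 counts, 2.08, 1.49 to 2.95), while VEGFA had 7016 and 7769 (0.928). Cholesterol synthesis had a median of 0.15 and 12 of 21 intervals above 1 with none below, against 19.5% and 17% of all genes, with the sterol transporter STARD4 at 371 and 622 (1.41). The targets of ATF4 had a median of 0.06 with PPP1R15A at 9975 and 16310 counts (1.37). The epithelial and mesenchymal lists had medians of 0.03 and 0.08. The basal keratin KRT5 (40 and 96) was higher at 2.01 (1.38 to 2.99), KRT15 (769 and 608) lower at 0.663 and the EMT factor SNAI2 (728 and 1251) higher at 1.44. In the TGF-beta list, ID3 (22 and 90, 3.43, 2.13 to 5.74, and 1.75 to 7.35 from halved counts) and TGFBI were past 2-fold in opposite directions.

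**Figure D4:**
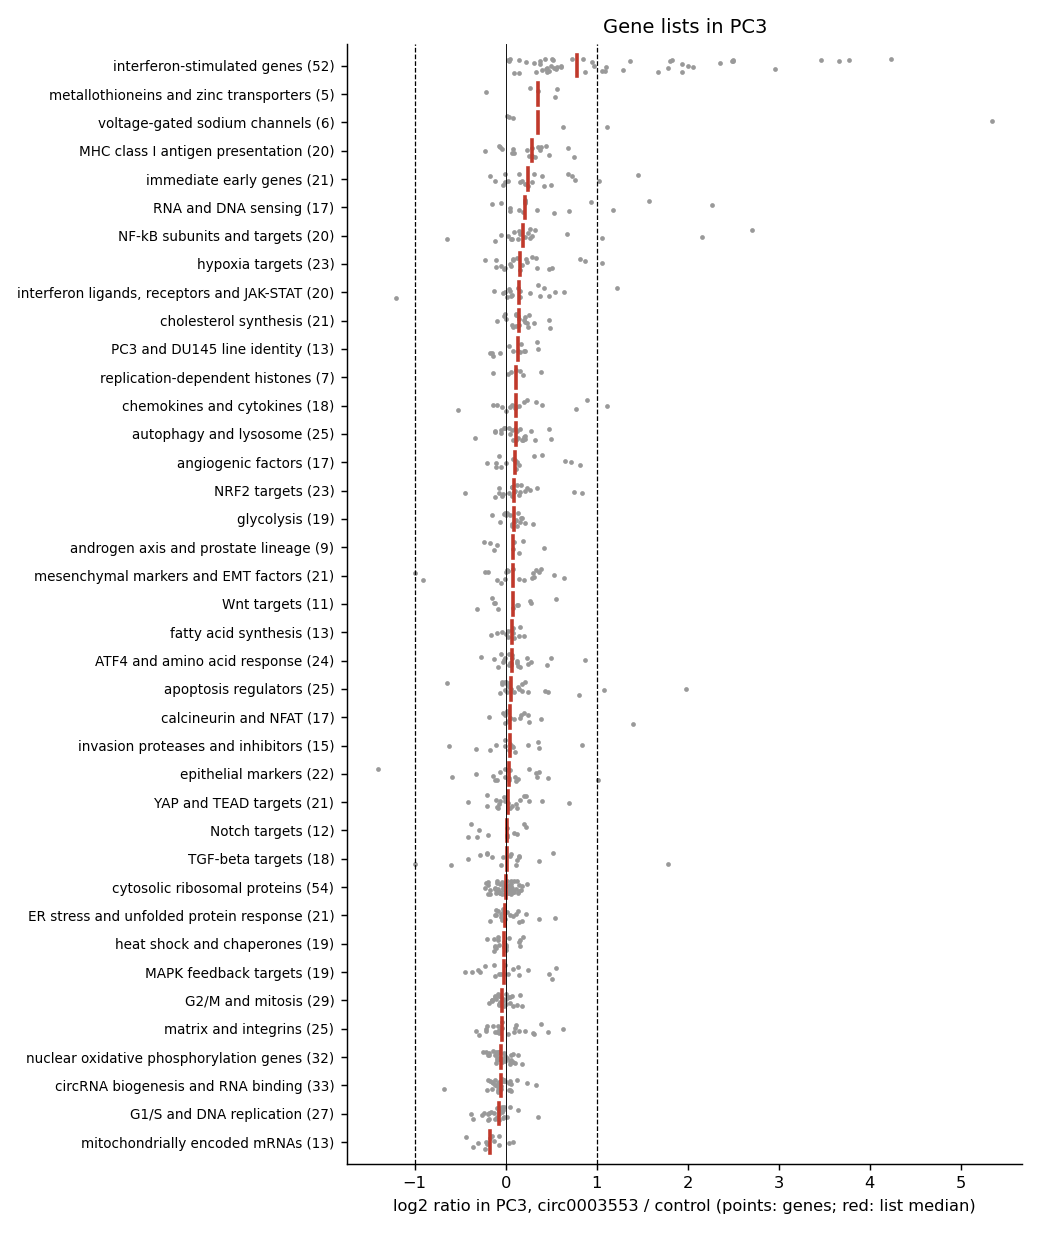
Log2 ratio of the circ0003553 to the control library in PC3 (x axis) for the members (grey points, 1 gene each) and median (red bar) of 39 gene lists with at least 5 counted genes (y axis, number of genes in brackets), ordered by median; dashed lines mark 2-fold. The interferon-stimulated list stands at 0.79 and the lowest list, mitochondrially encoded mRNAs, at -0.17.

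Higher genes often lay beside each other. Of the 176 genes, 28 (15.9%) had another 2-fold higher gene within 100 kb without a shared exon base, whereas 520 of the other 17187 counted genes (3.03%) had a 2-fold higher gene that near. The 20 pairs included the IFIT, OAS, MX, HERC and GBP families, IRF9 with REC8 (gap 5288 bases, ratio of REC8 2.02) and KLHL3 with SPOCK1 (gap 19121 bases, ratios 2.17 and 2.23). Families of related genes arise by local duplication, and the part of this in the share was not tested. A further 10 of the 176 shared exon bases with another 2-fold higher gene, so that their reads cannot be told apart.

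By class, 108 of 12620 protein-coding genes (0.856%) were 2-fold higher and 31 (0.246%) lower. Of 511 processed pseudogenes 6 (1.17%) were higher and 10 (1.96%) lower, with a median log2 ratio of -0.17. The classes were not matched for summed counts, and shares past 2-fold were larger at low counts. The highest ratio of any counted gene was that of a pseudogene, RPS17P11, with 1 and 74 counts (62.0, 10.8 to 2483). Pseudogenes share sequence with their parent genes, so the assignment of their reads is uncertain.

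In DU145, the same plasmids gave a response that shared part of the PC3 genes. Among 15868 genes counted in both lines, 118 were 2-fold higher in PC3, 143 (0.901%) in DU145 and 28 in both, which is 23.7% of the PC3 genes and 19.6% of the DU145 genes. Of the 28, 17 belong to the interferon-stimulated list, and IFIH1 and IRF9 of the same pathway are among the other 11. Among lower genes, 37 in PC3 and 130 in DU145 of these 15868 had 1 in common. That is 2.7% of the PC3 genes and 0.769% of the DU145 genes. Lists this small would share few genes in any case, so this overlap was not read as a difference between the lines. Of the 49 well-covered higher genes of PC3, 39 were counted in DU145, where 20 were also 2-fold higher, 11 had an interval above 1 but a ratio under 2, 6 had an interval spanning 1 and 2 had an interval below 1. With 1 library per group, no difference between the lines could be tested.

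The lines differed in size of ratio gene by gene. OASL stood at 18.8 in PC3 and 4.46 in DU145 (475 and 1975 counts), IFIT2 at 12.6 and 4.28 (582 and 2322 counts) and ZC3HAV1 at 5.64 and 1.67 (2690 and 4183 counts). In the other direction, MX1 was at 4.16 in PC3 and 5.7 in DU145, IFI6 at 2.14 and 5.09, and OAS1 at 3.54 and 8.8, the DU145 value of OAS1 resting on 5 and 41 counts. Control levels differed too, as for IFI44, which had 1216 counts in the PC3 control and 161 in the DU145 control at similar ratios of 5.62 and 6.22. Outside the interferon-stimulated list, PRR15 (179 and 180 counts in DU145, 1.08), APOL6 (956 and 881, 0.989), NMNAT2 (284 and 296, 1.12), TNIP1 (17827 and 16592, 0.999) and ZMAT3 (544 and 492, 0.971) had DU145 intervals or ratios close to 1. PMAIP1 (3.06), ATF3 (3.18) and IRF9 (3.36) were 2-fold higher there as well. List medians of the lines lay apart for MAPK feedback targets (-0.02 in PC3, 0.63 in DU145), the ATF4 list (0.06 and 0.61) and NRF2 targets (0.09 and -0.36). The interferon-stimulated list stood at 0.79 and 0.85. The 4 counted neuroendocrine markers stood at -0.16 and 0.45, but only 3 of them reached 50 counts in DU145, where POU3F2 had 4 and 6. JUN had a ratio of 0.976 in PC3 and 2.52 in DU145.

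**Figure D5:**
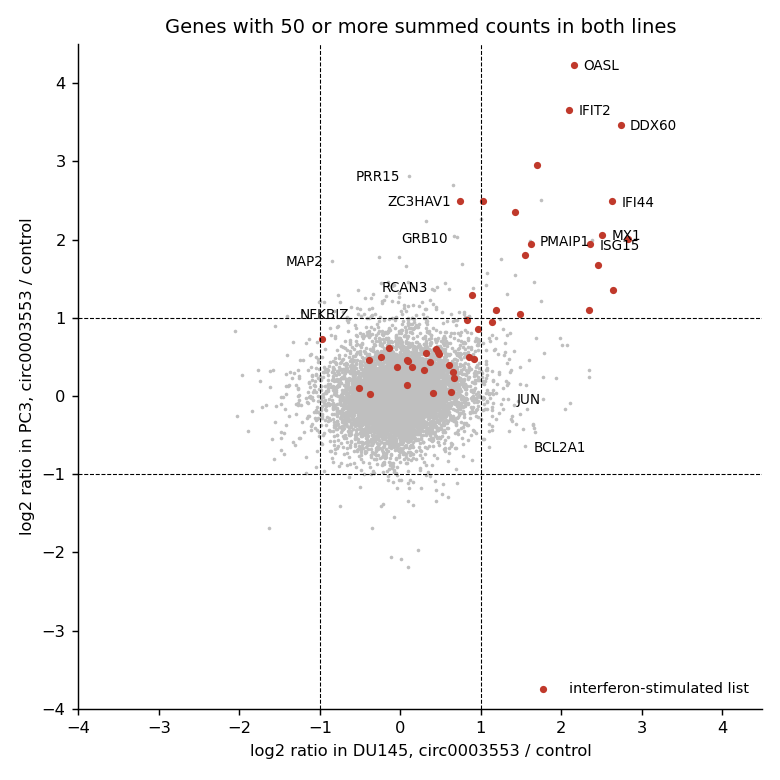
Log2 ratio of the circ0003553 to the control library in PC3 (y axis) against that in DU145 (x axis) for 15868 genes with 50 or more summed counts in each line; each point is 1 gene, red points are the interferon-stimulated list and dashed lines mark 2-fold. The 28 genes 2-fold higher in both lines lie in the upper right, and MAP2 and NFKBIZ lie above 2-fold in PC3 with ratios under 1 in DU145.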

How the data were processed

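The authors deposited whole-number counts and, separately, RPKM per gene. For all 35211 genes the deposited RPKM matched counts over gene length and column total (relative tolerance 1e-09), and it was used for levels per length only. Per the labels' protocols, DNase-treated total RNA was depleted of ribosomal RNA and made into stranded libraries with molecular identifiers of 8 bases. Build hg38, Trimmomatic 0.36, Subread 1.5.1 with featureCounts, and edgeR 3.12.1 are listed in the submitters' processing notes. The aligner, the strand setting and the handling of identifiers were not given in the sources used here. Columns were matched to samples by name, those with NC taken as the control.

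Counts were scaled by TMM over the 4 libraries (edgeR 4.0.16, R 4.3.3). Intervals were exact conditional binomial (scipy 1.17.1). They were run on simulated independent counts without pairs counted as 2, which cannot show how well they cover these data. With 1 library per group, no test was run. Alternatives were total counts, DESeq2 1.42.0 size factors, TMM over PC3 alone, halved counts, a prior count of 2, minimum sums of 20 and 200, a fold of 1.5, protein-coding genes and genes sharing no exon base.

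Named genes were the 15 highest and 15 lowest ratios at 200 or more counts ("well-covered"), the 10 highest and 10 lowest protein-coding ones sharing no exon, the 10 largest gains and losses in CPM, RCAN3, and up to 5 members of each of 45 lists (965 of 981 entries found). All others named were chosen after their values were seen. The members and lists were chosen with earlier results of these data known. Biotypes came from GENCODE 29 by name, for 24307 genes (69%). Results for some genes are not reported here.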

Additional observations from a re-analysis of the deposited data

Results flagged for a closer look

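Of 15868 genes counted in both lines, 1158 (7.3%) had intervals on opposite sides of 1 in PC3 and DU145, and 21 of these were at least 2-fold higher or lower in PC3. Given here are those among the named genes, the well-covered higher genes and the genes 2-fold apart in opposite directions. The difference between the lines was not tested. NFKBIZ stood at 2.08 in PC3 (1654 and 4095 counts) and 0.697 in DU145 (277 and 180 counts, 0.575 to 0.844). MAP2 stood at 3.31 in PC3 (87 and 343 counts) and 0.556 in DU145 (112 and 58 counts, 0.398 to 0.77). CXCL16, which shares exon bases with MED11, stood at 2.17 in PC3 and 0.707 in DU145 (246 and 162 counts, 0.576 to 0.865). IRF5 stood at 0.435 in PC3 (54 and 28 counts) and 1.36 in DU145 (139 and 176 counts, 1.08 to 1.71, and 0.975 to 1.87 from halved counts). The connexin gene GJA3, MTRNR2L1 and RP11-345J13.1 were 2-fold higher in PC3 and 2-fold lower in DU145, all from few counts. GJA3 stood at 2.31 (16 and 44 counts, 1.28 to 4.38, and 0.988 to 5.98 from halved counts) and 0.497 (82 and 38). MTRNR2L1 stood at 2.04 (28 and 68 counts) and 0.376 (40 and 14). RP11-345J13.1 stood at 2.1 (16 and 40 counts, 1.15 to 4.01, and 0.884 to 5.5 from halved counts) and 0.429 (40 and 16).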

How the results depend on the processing

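The count of 176 higher genes became 49 at a minimum of 200 summed counts, 479 at 20, 108 among protein-coding genes and 668 at a fold of 1.5. The 69 lower genes became 5, 327, 31 and 436 in the same order, and 42 among genes sharing no exon base. Of the 54 higher genes with an interval beyond 2-fold, 34 were counted at the minimum of 200 and 35 among genes sharing no exon base. The 7 lower ones became 1 at 200, 12 at 20, 0 with halved counts, 2 without shared exons and 3 among protein-coding genes. Fewer or more genes were counted under each of these settings, except halving, which widens intervals, and the lower fold. The scalings gave 162 to 185 higher and 64 to 72 lower genes, a prior count of 2 gave 138 and 58, and RCAN3 stayed between 2.59 and 2.65. The prior count does not enter the intervals and has no value for them. Of 1385 alternative values of 277 named genes none reversed and 35 moved beyond their interval, 22 with DESeq2 size factors and 13 with total counts. Named genes at the edge fell under 2-fold: KLF4 (1.999), KRT5 (1.99), REC8 (1.99) and CITED2 (1.98) with DESeq2 size factors, KRT5 (1.96), REC8 (1.98), CITED2 (1.997) and TGFBI (0.504) with the prior count, and TGFBI (0.505) with total counts. The scalings moved the median of all genes to between -0.01 and 0.02. The medians of 5 lists near 0 changed sign, among them TGF-beta targets (0.01 to -0.01 with DESeq2 size factors) and cytosolic ribosomal proteins (-0.002 to 0.01 with total counts). No paired analysis was possible because each PC3 group has 1 library. Of the lower genes 64 of 69 had under 200 counts, as did 127 of the 176 higher ones.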

Other observations

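Genes for RNA-binding proteins, among them some that act in circular RNA formation, had a list median slightly below equal level. Of 33 counted genes of that list, 19 had an interval below 1 (17% of all genes did) and 5 above 1, with a median log2 ratio of -0.05. No gene of it was past 2-fold, against 1.01% higher and 0.397% lower of all genes. From halved counts 12 of the 33 lay below 1 and 3 above, against 1854 and 1995 of all 17363 genes. Intervals also narrow with counts, and at 5000 or more summed counts 969 of 2806 genes had one that spanned 1. The list was not matched to other genes for counts. DHX9, a helicase that unwinds the paired repeats flanking circularised exons, had 4591 and 4947 counts in the control and the circ0003553 library of PC3 (ratio 0.903, 0.868 to 0.941). QKI, which promotes circularisation, had 3000 and 3370 (0.942, 0.896 to 0.99, and 0.877 to 1.01 from halved counts), and METTL3, the m6A methyltransferase, had 1092 and 1133 (0.87, 0.8 to 0.946). ADAR, an RNA-editing enzyme with an interferon-inducible isoform, was the highest of the list at 4191 and 6280 (1.26, 1.21 to 1.31).

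Among adhesion and vascular genes, the collagen receptor ITGA2 had 2205 and 4059 counts (1.54, 1.47 to 1.63), the laminin chain LAMA3 had 3856 and 6349 (1.38, 1.33 to 1.44) and the lymphangiogenic factor VEGFC had 991 and 1944 (1.64, 1.52 to 1.78). The integrin genes ITGA5 (1.3, 1.21 to 1.4) and ITGB4 (1.24, 1.12 to 1.38) were also higher, whereas ITGB1, with 46083 and 47437 counts (0.863, 0.852 to 0.874), and ITGA6 (0.865, 0.837 to 0.895) were lower. The zinc-binding metallothionein gene MT2A had 10163 and 17907 (1.48, 1.44 to 1.51). The autophagy receptor SQSTM1 had 7384 and 12267 (1.39, 1.35 to 1.43), whereas the lysosomal membrane gene LAMP2 had 629 and 592 (0.789, 0.704 to 0.884). Among the 15868 genes counted in both lines, 37 were 2-fold lower in PC3 and 143 (0.901%) 2-fold higher in DU145, and none was both. Lists this small would share few genes in any case, so this was not read as a result.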
